A study of Mus musculus with 16 samples.

Results

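Fatty acid oxidation was described through 37 genes of mouse fat, chosen by name as the enzymes and carriers that activate, import and shorten fatty acids. They comprised 5 acyl-CoA synthetases that activate fatty acids, 4 genes of the carnitine shuttle, 9 of the mitochondrial oxidation spiral, 3 auxiliary mitochondrial enzymes for unsaturated chains, 3 genes of electron transfer, 10 peroxisomal genes and 3 thioesterases. Each of the 37 symbols matched 1 of the 46386 entries of the deposited table, and 36 of them were among the 14991 genes tested. Acsl6, an acyl-CoA synthetase, did not reach 1 FPKM in 4 libraries and was not tested. FPKM are fragments scaled to the length of the transcript and to the mapped fragments of the library, so levels are per length.

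RNA had been sequenced from 16 libraries of adipose tissue. All groups shared the animals' background: they were C57BL66/J males in which obesity had been induced with a high-fat diet, and no lean group was analysed here. Thigh fat (tAT), brown fat (BAT), epididymal white fat (eWAT) and inguinal white fat (iWAT) had 4 libraries each, numbered 1 to 4. Whether the 4 libraries of a depot stand for 4 animals is not stated in the labels, and the p-values therefore reflect library-to-library spread, part of which may be technical. By its title, the study set out to find a depot that is beige by nature, beige cells being heat-producing adipocytes within white fat. In bulk tissue, fewer cells of a type and less RNA per cell cannot be told apart.

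Long-chain fatty acids are first joined to coenzyme A, and carnitine then carries the acyl chain across the mitochondrial membranes. In the matrix each turn of the spiral removes an acetyl-CoA by dehydrogenation, hydration, a second dehydrogenation and thiolysis, and the flavoprotein dehydrogenases pass their electrons to the respiratory chain through electron transfer flavoprotein. Peroxisomes shorten very long and branched chains by a separate set of enzymes. In brown fat, oxidation of fatty acids is known to fuel heat production.

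The number of reads behind the values is unknown, and the FPKM of a library summed to between 818815 and 1074123. The median gene differed from 0 in every contrast with BAT: by 0.44 on the log2(FPKM + 1) scale in tAT minus BAT, by -0.52 in BAT minus eWAT and by -0.54 in BAT minus iWAT, against -0.11 in tAT minus iWAT, -0.084 in tAT minus eWAT and -0.0027 in eWAT minus iWAT. Scaling the libraries by the median of ratios brought all 6 medians to between -0.02 and 0.01. Thermogenic adipocyte markers (the 5 genes Ucp1, Cidea, Elovl3, Dio2 and Cox8b) were highest in the libraries labelled BAT: they summed to between 899.6 and 2612 FPKM in tAT, 10906 and 14447 in BAT, 28.3 and 63.6 in eWAT and 106 and 194 in iWAT, and 7 general adipocyte markers were above 0 in every library. Transcripts of 25 skeletal muscle genes summed to 29596, 29797, 319 and 18828 FPKM in tAT 1 to 4 and to 150.2, 130.1, 3689 and 3044 in BAT 1 to 4, against 72.7 to 90.4 in eWAT and 129 to 836 in iWAT. Results for tAT are therefore also given without tAT 1, 2 and 4. Markers of 9 macrophage genes summed to 210.4 to 385 FPKM in tAT, 35.1 to 59.5 in BAT, 1170.0 to 2365 in eWAT and 632 to 1038 in iWAT.

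By mean summed level, the mitochondrial steps were highest in BAT, lower in tAT and lowest in the white depots. The peroxisomal genes did not follow that order. For the auxiliary and electron transfer steps, thigh libraries overlapped white libraries. The auxiliary genes summed to 353, 312, 637 and 431 FPKM in tAT 1 to 4, against 314 to 350 in eWAT and 329 to 355 in iWAT. The electron transfer genes summed to 775, 715, 1487 and 989 FPKM in tAT 1 to 4, against 603 to 722 in eWAT and 717 to 831 in iWAT. The order BAT, tAT, iWAT, eWAT from highest to lowest mean log2(FPKM + 1) held for 21 of the 37 genes. All 37 together made up 0.698% ± 0.12 of the FPKM of tAT libraries, 2.40% ± 0.12 of BAT, 0.427% ± 0.020 of eWAT and 0.520% ± 0.034 of iWAT (SD, n = 4 each). The step with the largest sum was the spiral, whose 9 genes reached 3500 ± 1101 FPKM in tAT and 13535 ± 600.5 in BAT, against 1738 ± 63.8 in eWAT and 2072 ± 77.2 in iWAT. The 10 peroxisomal genes summed to 484 ± 43.7 FPKM in tAT and 493 ± 29.3 in BAT, against 621 ± 29.3 in eWAT and 592 ± 29.3 in iWAT. These sums are of FPKM as deposited, and their order depends on the scaling. After median-of-ratios scaling, 7 of the 10 were higher and 1 lower in BAT against iWAT, beside 31.2% and 32.9% of all genes. Against eWAT, 7 were then higher and 2 lower in BAT, beside 34.4% and 34.9%. Activation genes stood nearly level in tAT and BAT, at 762 ± 55.4 and 759.8 ± 59.9 FPKM, against 407 ± 57.9 in eWAT and 637 ± 95.1 in iWAT.

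**Figure D1:**
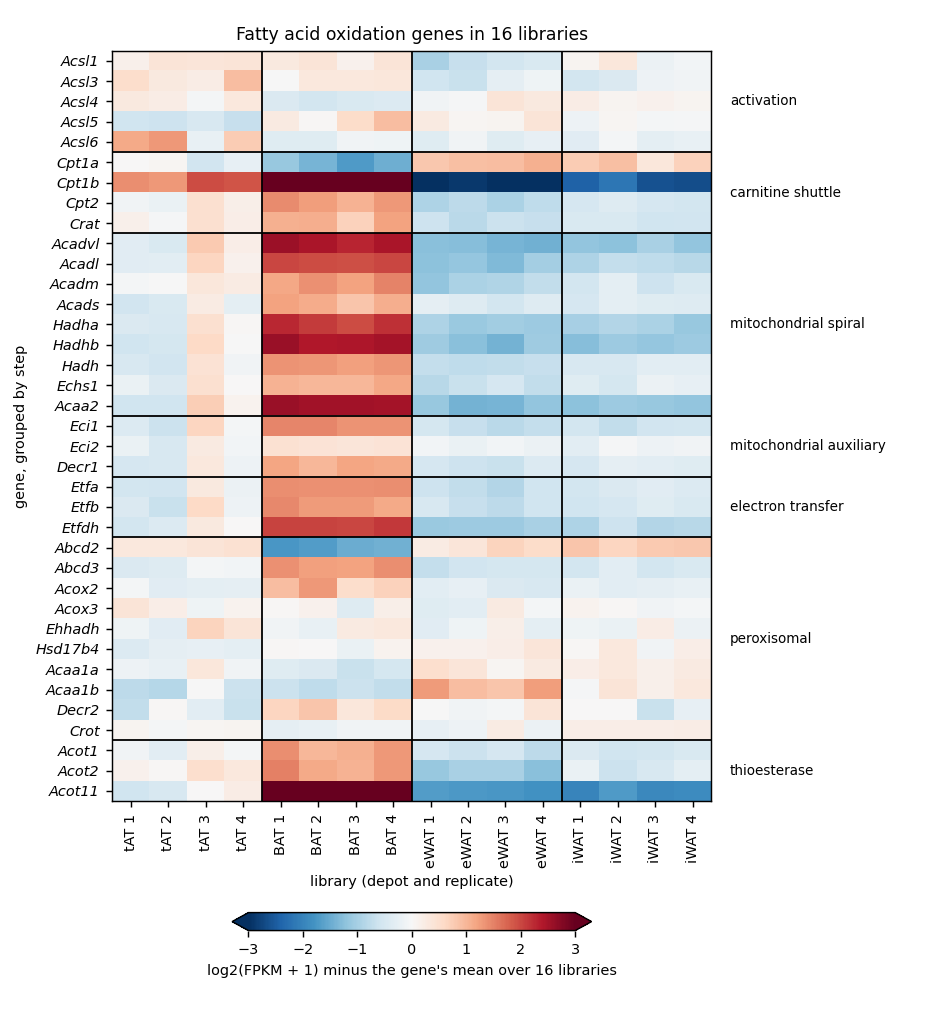
Level of each of the 37 genes in each of the 16 libraries, as log2(FPKM + 1) minus the mean of the gene over all libraries, with genes grouped by step and libraries by depot. The BAT columns are red through the carnitine shuttle (except Cpt1a), the spiral and electron transfer, tAT 3 is the reddest thigh library there, and the peroxisomal rows show no common pattern.

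**Figure D2:**
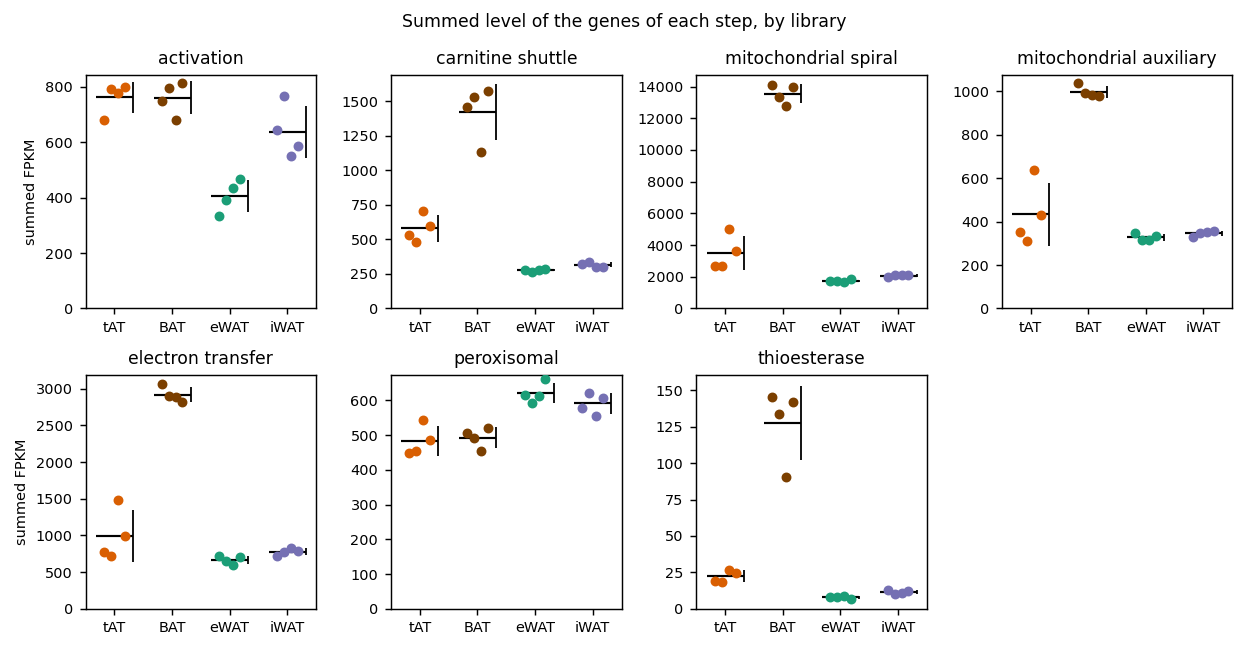
Summed FPKM, as deposited and without further scaling, of the genes of each step in each library (points). The depot mean (horizontal line) and 1 SD (vertical line) are over 4 libraries. The spiral sums lie between 12769 and 14070.5 FPKM in BAT and between 1689.8 and 2139 FPKM in the white depots, whereas the peroxisomal sums lie between 449 and 663 FPKM in all 16 libraries.

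Counted over genes, tAT against iWAT gave 14 higher and 5 lower of 36 tested (38.9% and 13.9%), where 10.5% of all 14991 genes were called higher and 29.4% lower at a limma adjusted p under 0.05. The median difference of the 36 genes was 0.25 on the log2(FPKM + 1) scale, beside -0.11 for all genes. BAT against iWAT gave 26 higher and 6 lower, beside 12.7% and 61.5% of all genes, with a median of 1.51 beside -0.54. tAT against BAT gave 4 higher and 26 lower, beside 58.6% and 11.2% of all genes, with a median of -1.13 beside 0.44. tAT against eWAT gave 21 higher and 6 lower, beside 21.6% and 36% of all genes, with a median of 0.51 beside -0.084. BAT against eWAT gave 26 higher and 5 lower, beside 15.2% and 59%, with a median of 1.72 beside -0.52. Between the white depots, eWAT against iWAT, 1 gene was higher and 5 were lower, beside 8.48% and 5.52% of all genes, with a median of -0.12 beside -0.0027. The contrasts share libraries, so their counts are not independent. After median-of-ratios scaling BAT against iWAT held 31 higher and 2 lower, beside 31.2% and 32.9% of all genes, tAT against BAT 2 higher and 29 lower, beside 27.3% and 26.8%, and BAT against eWAT 31 higher and 3 lower, beside 34.4% and 34.9%. After quantile normalization tAT against iWAT held 24 higher and 3 lower (15.9% and 21.9% of all genes) and tAT against eWAT 26 higher and 3 lower (28% and 29.2%). Under median-of-ratios scaling tAT against iWAT held 17 higher and 4 lower (15.4% and 21% of all genes). For tAT against eWAT it gave 23 higher and 4 lower (26.6% and 30.9%). Acox2 reached 1 FPKM in BAT libraries alone and Acot11 in tAT and BAT libraries alone, so their entry into the test rested on the depots where they were high.

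**Figure D3:**
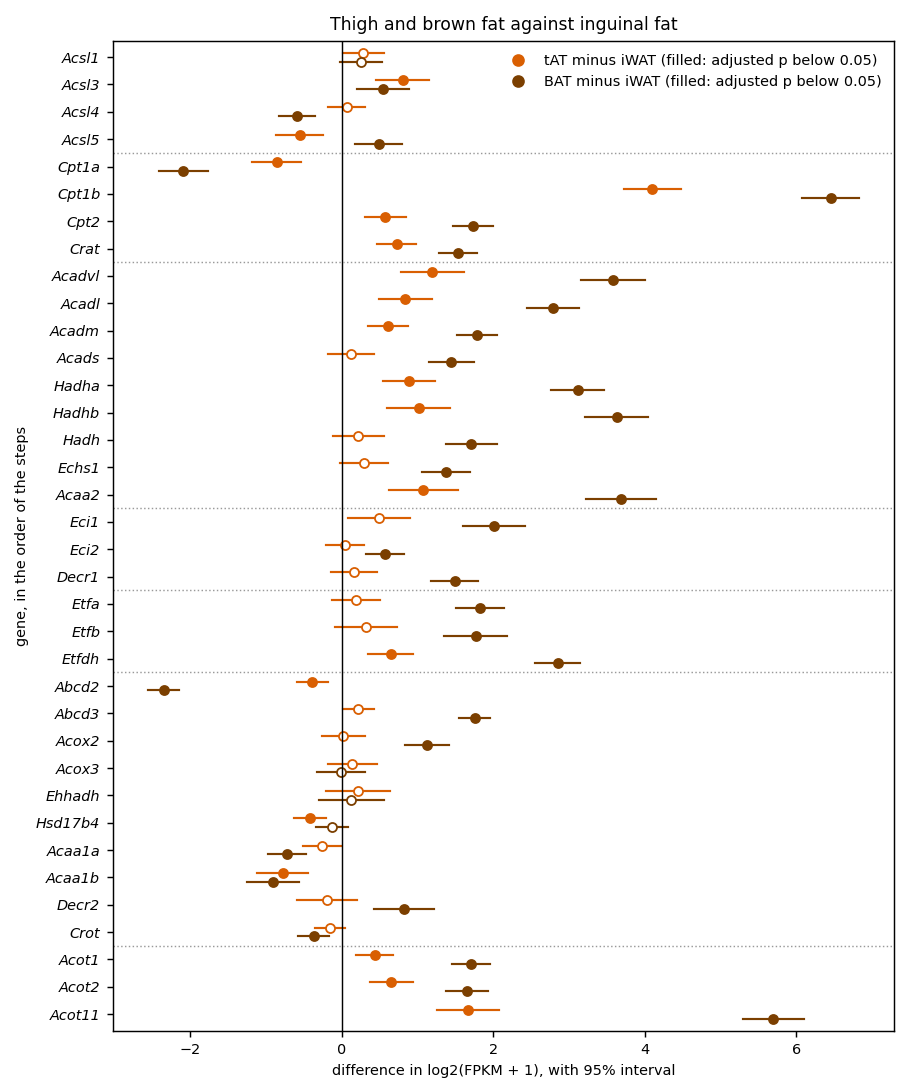
Difference in log2(FPKM + 1) of tAT minus iWAT (orange) and BAT minus iWAT (brown) with 95% intervals for the 36 tested genes, in the order of the steps. Filled points passed a limma adjusted p under 0.05, which 14 genes did above 0 and 5 below 0 in tAT, and 26 above and 6 below in BAT.

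The first step, activation, was carried in every depot by Acsl1, the main long-chain acyl-CoA synthetase of adipocytes. Acsl1 stood at 642, 757, 745 and 756 FPKM in tAT and 707, 754, 627 and 751 in BAT, against 293, 355, 392 and 421 in eWAT and 609, 728, 513 and 546 in iWAT. The tAT libraries all lay above the eWAT libraries and overlapped those of iWAT, and Acsl1 was higher in tAT than in eWAT (1.00, SE 0.13, adjusted p = 1.12e-05) and lower in eWAT than in iWAT (-0.71, SE 0.13, adjusted p = 0.00207). Its difference between tAT and iWAT was 0.28 (SE 0.13, adjusted p = 0.091), and that between tAT and BAT 0.03 (SE 0.13, adjusted p = 0.845). After median-of-ratios scaling both passed, that from iWAT at 0.39 (adjusted p = 0.0379) and that from BAT at -0.52 (adjusted p = 0.00496), and under quantile normalization that from iWAT was 0.52 (adjusted p = 0.0158). Of the summed FPKM of the 5 Acsl genes, Acsl1 took 94.3 to 95.7% in tAT, 92.1 to 94.9% in BAT, 87.8 to 90.6% in eWAT and 93.1 to 94.9% in iWAT.

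The other synthetases were far less abundant and moved in different directions. Acsl3, found on lipid droplets and endoplasmic reticulum, stood at 13.7, 11.6, 10.96 and 18.3 FPKM in tAT and 9.10, 11.8, 11.7 and 11.95 in BAT, against 5.82, 5.40, 7.47 and 8.32 in eWAT and 6.04, 6.55, 8.21 and 8.51 in iWAT. All tAT libraries lay above all iWAT libraries, and the difference was 0.80 (SE 0.16, adjusted p = 0.00134). With tAT 3 as the only thigh library it was 0.53 and did not pass (adjusted p = 0.12). Acsl3 overlaps Utp14b on the same strand over 13475 bases of its span, and reads of the 2 genes may be shared. Utp14b averaged 1.30 ± 0.39 FPKM in tAT and 1.07 ± 0.21 in BAT, against 0.757 ± 0.28 in eWAT and 0.839 ± 0.19 in iWAT.

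Acsl5, a synthetase of mitochondria and endoplasmic reticulum, was lowest in tAT. Its values were 15.8, 15.8, 17.3 and 15.00 FPKM in tAT and 29.8, 25.1, 36.7 and 47.8 in BAT, against 29.7, 25.8, 26.1 and 32.4 in eWAT and 22.1, 25.9, 23.7 and 24.2 in iWAT. The tAT libraries lay below all others, and Acsl5 fell in tAT against BAT (-1.04, SE 0.15, adjusted p = 1.41e-05), against eWAT (-0.79, SE 0.15, adjusted p = 0.000289) and against iWAT (-0.56, SE 0.15, adjusted p = 0.00715). Without tAT 1, 2 and 4 the last 2 did not pass, at -0.68 against eWAT (adjusted p = 0.0538) and -0.45 against iWAT (adjusted p = 0.234). Acsl5 shares 26430 bases with Zdhhc6 on the opposite strand, which averaged 13.7 ± 0.97 FPKM in tAT and 11.4 ± 0.32 in BAT, against 15.2 ± 0.49 in eWAT and 14.5 ± 0.37 in iWAT, and without strand reads of the 2 cannot be told apart. Acsl4, which prefers arachidonate, stood at 7.16, 6.82, 5.40 and 7.26 FPKM in tAT and 3.96, 3.58, 3.83 and 4.03 in BAT, against 5.20, 5.55, 7.72 and 7.16 in eWAT and 6.83, 6.11, 6.24 and 6.05 in iWAT. The BAT libraries were the lowest and overlapped none of the others (BAT minus iWAT -0.59, SE 0.11, adjusted p = 0.000192), although under quantile normalization that difference was 0.06 and did not pass. Acsl6 was listed at 1.84, 2.18, 0.106 and 1.19 FPKM in tAT, at most 0.204 in BAT, at most 0.206 in eWAT and at most 0.244 in iWAT. The 3 thigh libraries above 1 FPKM were tAT 1, 2 and 4, those with the most muscle transcripts, and their part in the level was not tested.

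In the carnitine shuttle the 2 isoforms of carnitine palmitoyltransferase 1, the outer-membrane enzyme that commits acyl chains to mitochondrial oxidation, changed places between depots. Cpt1b, the isoform known from muscle and brown fat, stood at 89.8, 84.2, 133 and 126 FPKM in tAT and 537, 633, 420.5 and 627 in BAT, against 3.06, 3.62, 2.26 and 2.58 in eWAT and 5.43, 6.71, 4.63 and 4.45 in iWAT. No 2 depots overlapped, and the tAT libraries lay between those of BAT and those of both white depots. Cpt1b was 20.4-fold higher in tAT than in iWAT by mean FPKM (4.10, SE 0.18, adjusted p = 3.3e-09), 105-fold higher in BAT than in iWAT (6.46, SE 0.18, adjusted p = 7.74e-14) and lower in tAT than in BAT (-2.35, SE 0.18, adjusted p = 1.72e-08). In tAT 3 alone, the thigh library with few muscle transcripts, Cpt1b was the highest of the thigh libraries, and the difference from iWAT without tAT 1, 2 and 4 was 4.42 (adjusted p = 7.52e-07). GENCODE vM21 also lists Gm44502, which covers 9459 bases of Cpt1b on the same strand. The deposited values hold no entry under that name, and whether reads were shared is not known.

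Cpt1a, the isoform known from liver and white fat, ran the other way. Its values were 17.4, 17.9, 11.2 and 14.1 FPKM in tAT and 7.25, 5.92, 4.56 and 5.54 in BAT, against 30.6, 32.9, 33.6 and 36.98 in eWAT and 29.8, 32.6, 21.8 and 28.4 in iWAT. No tAT library reached the white depots and no BAT library reached tAT. Cpt1a fell in tAT against iWAT (-0.86, SE 0.15, adjusted p = 0.000535) and in BAT against iWAT (-2.10, SE 0.15, adjusted p = 5.49e-09), and was higher in tAT than in BAT (1.24, SE 0.15, adjusted p = 4.06e-06). Cpt1b took 82.5 to 92.2% of the summed FPKM of both isoforms in tAT and 98.7 to 99.1% in BAT, against 6.31 to 9.93% in eWAT and 13.6 to 17.5% in iWAT. The sum itself was 123 ± 21.9 FPKM in tAT and 560.4 ± 100.03 in BAT, against 36.4 ± 2.43 in eWAT and 33.5 ± 5.39 in iWAT. The coding sequences of the pair were 67.2% identical (GENCODE vM21) over 2284 aligned bases and shared no window of 50 bases. Cpt1a lies on chromosome 19 (chr19:3322334-3385733, plus strand) and Cpt1b on chromosome 15 (chr15:89416405-89425863, minus strand).

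Downstream of both isoforms, the inner-membrane enzyme Cpt2, which returns the acyl chain to coenzyme A, stood at 117, 109, 176 and 141 FPKM in tAT and 335, 299, 258 and 308 in BAT, against 65.1, 71.9, 64.4 and 72.8 in eWAT and 87.7, 95.6, 88.5 and 85.2 in iWAT. The depots did not overlap, and Cpt2 was higher in tAT than in iWAT (0.57, SE 0.13, adjusted p = 0.00232) and lower in tAT than in BAT (-1.16, SE 0.13, adjusted p = 9.87e-07). Crat, carnitine acetyltransferase, had the highest mean of the shuttle, with 307, 268, 386 and 319 FPKM in tAT and 581, 592, 447 and 634 in BAT, against 181, 156, 176 and 171 in eWAT and 202, 200.4, 182 and 185 in iWAT. It also rose in tAT (0.72, SE 0.12, adjusted p = 0.000298) and in BAT (1.54, SE 0.12, adjusted p = 1.06e-08), with no overlap between tAT and iWAT libraries.

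**Figure D4:**
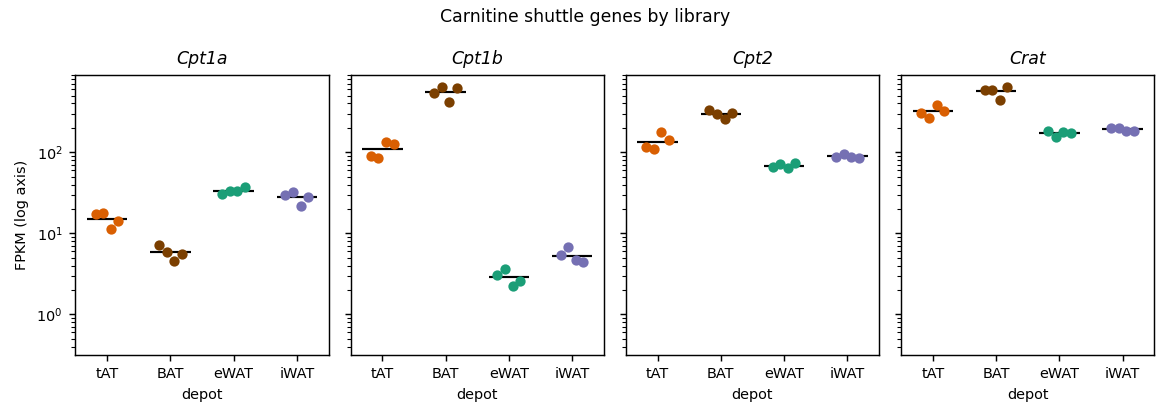
FPKM of the 4 carnitine shuttle genes in each library (points) with the depot mean (line), on a shared log axis. Cpt1b runs from 2.26 FPKM in eWAT to 633 in BAT while Cpt1a runs from 4.56 in BAT to 36.98 in eWAT, and Cpt2 and Crat vary less.

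The spiral genes rose together in BAT and, for 6 of 9, in tAT. All 9 were higher in BAT than in iWAT, by 1.38 (Echs1) to 3.69 (Acaa2) on the log2(FPKM + 1) scale, beside 12.7% of all genes. All 9 were lower in tAT than in BAT, beside 11.2% of all genes. In tAT against iWAT, Acadvl, Acadl, Acadm, Hadha, Hadhb and Acaa2 were higher, and Acads, Hadh and Echs1 did not pass, at 0.12, 0.22 and 0.29. The 6 that passed, where 10.5% of all genes were called higher, comprise the dehydrogenases of very long, long and medium chains (Acadvl, Acadl, Acadm), both subunits of the trifunctional protein (Hadha, Hadhb) and the thiolase Acaa2. Under quantile normalization 9 of 9 were higher in tAT than in iWAT, beside 15.9% of all genes. Acads was then at 0.35 (adjusted p = 0.027), Hadh at 0.46 (adjusted p = 0.0112) and Echs1 at 0.53 (adjusted p = 0.0101). After median-of-ratios scaling 6 of 9 were higher, beside 15.4% of all genes. Acads, Hadh and Echs1 did not pass there, at 0.23, 0.32 and 0.40.

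Hadhb, the thiolase subunit of the trifunctional protein, had the highest mean of the spiral over all libraries. It stood at 448, 474, 1031 and 676 FPKM in tAT and 4095, 3606, 3669 and 3874 in BAT, against 323, 284, 256 and 327 in eWAT and 281, 322, 306 and 319 in iWAT. The tAT libraries all lay above those of both white depots and below those of BAT, with tAT 3 the highest of them. Hadhb rose in tAT against iWAT (1.02, SE 0.20, adjusted p = 0.000945) and in BAT against iWAT (3.63, SE 0.20, adjusted p = 1.77e-10), and fell in tAT against BAT (-2.62, SE 0.20, adjusted p = 1.81e-08). Its partner Hadha, which holds the hydratase and long-chain dehydrogenase activities, averaged 345 ± 111 FPKM in tAT and 1564 ± 134 in BAT, against 172 ± 10.6 in eWAT and 179.9 ± 13.8 in iWAT (SD, n = 4 each). Per length, Hadhb was 1.87 ± 0.17 times as abundant as Hadha in tAT and 2.44 ± 0.13 times in BAT, against 1.73 ± 0.20 in eWAT and 1.71 ± 0.18 in iWAT.

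The 2 subunit genes lie head to head on chromosome 5, Hadha on the minus strand (chr5:30118304-30155162) and Hadhb on the plus strand (chr5:30155248-30184593), per GENCODE vM21. The 85 bases between their annotated starts (chr5:30155163-30155247, GRCm38.p6, plus strand), shown because 1 short stretch separates a pair of genes that were both highest in BAT, read 5′ to 3′ as follows, with CpG dinucleotides in capitals.
Hadha-Hadhb: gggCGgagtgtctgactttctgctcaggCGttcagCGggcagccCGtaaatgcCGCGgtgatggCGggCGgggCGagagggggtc
The stretch holds 9 CpG and is 69.4% G or C. Of the 37 promoters that RefSeq (GRCm38.p6) gives for 31 of the genes, none held a direct repeat of AGGTCA spaced by 1 base (on either strand, with at most 1 mismatch), beside 0.554% of 32851 promoters, and 1 (of Acsl6) held the extended half-site TNAAGGTCA, beside 1.28%. A match or its lack is a description of these letters in a short window around the annotated start site, and sites farther away were not searched. At a share of 0.554%, 37 promoters are too few for the lack of a match to be told from the share of all promoters. Cpt1b, Crat, Acaa2, Decr1, Abcd2 and Hsd17b4 had no promoter in the set used, and theirs were not searched.

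Acadvl, the dehydrogenase of very long chains, had the largest rise of the spiral in tAT against iWAT. It stood at 198, 184, 438 and 289 FPKM in tAT and 1493, 1377, 1238 and 1377 in BAT, against 105, 103, 95.4 and 92.3 in eWAT and 110.2, 106, 128 and 111 in iWAT. The tAT libraries did not overlap any other depot, and the differences were 1.19 (SE 0.20, adjusted p = 0.000297) in tAT minus iWAT and -2.39 (SE 0.20, adjusted p = 5.13e-08) in tAT minus BAT. Acadvl overlaps Dvl2 on the opposite strand over 2119 bases, and the use of strand in counting is not given in the labels. Dvl2 averaged 4.32 ± 0.35 FPKM in tAT and 2.79 ± 0.28 in BAT, against 4.11 ± 0.84 in eWAT and 4.12 ± 0.29 in iWAT, far below Acadvl.

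Acaa2, a mitochondrial thiolase, had the largest difference of the spiral between BAT and iWAT. Its values were 212, 213, 535 and 349 FPKM in tAT and 1931, 1851, 1839 and 1820.4 in BAT, against 145, 120.0, 122 and 141 in eWAT and 137, 149.9, 145 and 142 in iWAT. No BAT library came near the other depots, and every tAT library exceeded every white library. Acaa2 rose in BAT against iWAT (3.69, SE 0.21, adjusted p = 4.3e-10) and in tAT against iWAT (1.07, SE 0.21, adjusted p = 0.00124). Acadl and Acadm, the long-chain and medium-chain dehydrogenases, were 1.86-fold and 1.53-fold higher in tAT than in iWAT by mean FPKM, and 6.92-fold and 3.46-fold higher in BAT than in iWAT. Without tAT 3, the 6 spiral genes called in tAT against iWAT kept their call, at differences of 0.54 (Acadm) to 0.95 (Acadvl).

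The auxiliary enzymes, which bring double bonds of unsaturated chains into the spiral, differed between BAT and the other depots and less between tAT and iWAT. Eci1, an enoyl-CoA isomerase, stood at 154, 129, 320.2 and 196 FPKM in tAT and 565, 562, 517 and 520.2 in BAT, against 140.3, 125, 115 and 123 in eWAT and 137, 121, 137 and 139 in iWAT. The tAT and iWAT libraries overlapped, and their difference, 0.49 (SE 0.19, adjusted p = 0.0553), did not pass, while BAT minus iWAT was 2.01 (SE 0.19, adjusted p = 1.37e-07). Leaving out tAT 1 or tAT 2 brought Eci1 past the threshold in tAT against iWAT, at 0.59 and 0.67. Decr1, a dienoyl-CoA reductase, and Eci2, a second isomerase, were higher in BAT than in iWAT by 1.49 and 0.57 and did not pass in tAT minus iWAT, at 0.16 and 0.04.

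Electron transfer followed the same order. Etfb, a subunit of electron transfer flavoprotein and the most abundant gene of this step, stood at 391, 329, 793 and 476 FPKM in tAT and 1431, 1285, 1274 and 1160.2 in BAT, against 374, 323, 303 and 345 in eWAT and 349, 368, 411 and 382 in iWAT. The tAT libraries spanned the range of iWAT, and tAT minus iWAT was 0.31 (SE 0.19, adjusted p = 0.213), while BAT minus iWAT was 1.77 (SE 0.19, adjusted p = 6.09e-07). Etfb shares 13673 bases with Gm45233 on the same strand. The deposited values hold no entry named Gm45233, and whether reads were shared is not known. Etfdh, the inner-membrane oxidoreductase that hands the electrons to ubiquinone, stood at 68.3, 75.1, 123 and 102 FPKM in tAT and 409, 410.1, 403 and 442 in BAT, against 45.5, 46.6, 46.4 and 51.02 in eWAT and 52.6, 64.9, 54.4 and 55.9 in iWAT. No tAT library overlapped iWAT, and Etfdh rose in tAT against iWAT (0.65, SE 0.14, adjusted p = 0.00224) and in BAT against iWAT (2.85, SE 0.14, adjusted p = 6.69e-11). Etfa, the other flavoprotein subunit, was 4.38 ± 0.32 times as abundant per length as Etfdh in tAT and 2.93 ± 0.12 times in BAT, against 6.01 ± 0.48 in eWAT and 6.07 ± 0.60 in iWAT.

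Within tAT, mitochondrial genes were highest in the library with the fewest muscle transcripts. The 19 genes of the shuttle, spiral, auxiliary and electron transfer steps summed to 4349, 4172, 7835 and 5659 FPKM in tAT 1 to 4, against 2882 to 3149 in eWAT and 3332 to 3599 in iWAT, and to 17768 to 19637 in BAT. tAT 3 was the highest thigh library for 18 of the 19 genes, the exception being Cpt1a, and for 37.3% of all tested genes. The 5 thermogenic markers summed to 899.6, 920.5, 2612 and 1625 FPKM in tAT 1 to 4 and the 7 adipocyte markers to 21002, 18865, 31643 and 23275. The part of these in the mitochondrial values was not tested. With tAT 3 as the only thigh library, assumed to vary like the other groups, 18 of the 19 genes were higher than in iWAT and 1 (Cpt1a) lower, where 5.56% and 14.1% of all genes were called, and Acads, Hadh, Echs1, Eci1, Eci2, Decr1, Etfa and Etfb passed in addition to those above. The differences of genes already called were then -1.24 for Cpt1a, 0.97 for Cpt2, 1.00 for Crat, 1.94 for Acadvl, 1.75 for Hadhb, 1.89 for Acaa2 and 1.10 for Etfdh. With all thigh libraries the count was 10 higher and 1 lower, beside 10.5% and 29.4% of all genes. The difference from BAT stayed in the same direction, with 1 higher and 17 lower of the 19, beside 40.5% and 7.61% of all genes. Against eWAT, 25 of the 36 genes were then higher and 2 lower, beside 9.97% and 23.1% of all genes.

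**Figure D5:**
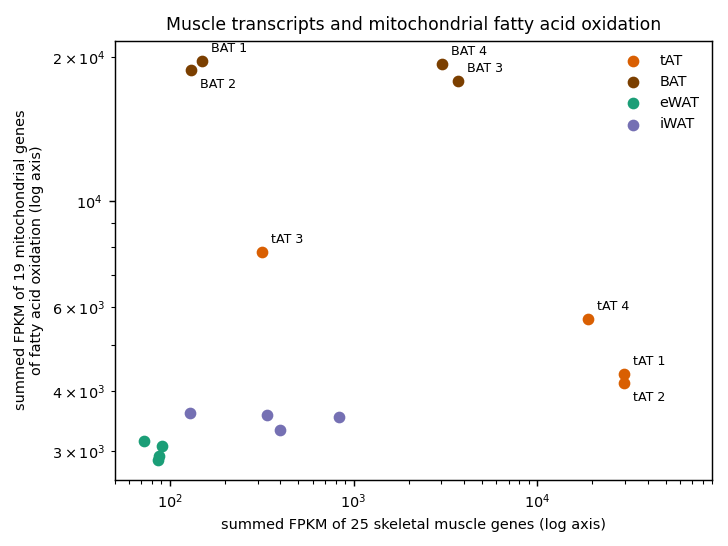
Summed FPKM of 19 mitochondrial fatty acid oxidation genes against summed FPKM of 25 skeletal muscle genes, 1 point per library, both axes logarithmic. tAT 3 lies at 319 on the muscle axis and 7835 on the other, and tAT 1 and 2 lie at 29596 and 29797 on the muscle axis and at 4349 and 4172 on the other. BAT 1 to 4 lie at 150.2, 130.1, 3689 and 3044 on the muscle axis and at 19637, 18774, 17768 and 19325 on the other. The relation between the axes was not tested.

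On the log2 scale, the place of tAT between iWAT and BAT differed from step to step. Over the 26 genes higher in BAT than in iWAT, the tAT mean stood at a median of 24.9% of the distance from iWAT to BAT. The median was 47.0% for the 3 shuttle genes, 28.5% for the 9 spiral genes, 10.7% for the 3 auxiliary genes and 17.8% for the 3 electron transfer genes. It was 29.2% for the 3 thioesterases and 1.77% for the 3 peroxisomal genes among the 26 (-24.6 to 12.4%). tAT lay outside the interval between iWAT and BAT for 3 of the 26: Decr2 at -24.6% and Acsl5 at -115%, on the far side of iWAT, and Acsl3 at 146%, beyond BAT. The place of Acsl3 beyond BAT held only for the deposited values. Its difference in tAT minus BAT was -0.25 both after median-of-ratios scaling and under quantile normalization. In tAT 3 Acsl3 stood at 3.58 on the log2(FPKM + 1) scale, beside a BAT mean of 3.59. Cpt1b was the farthest along of the mitochondrial genes at 63.5%. These percentages describe the means of FPKM as deposited, which include tAT 1, 2 and 4 with their muscle transcripts, and were not tested. The order of the steps may differ without those libraries, and the percentages may differ under another scaling. For the 3 auxiliary genes Eci1, Eci2 and Decr1, tAT 3 stood at 8.33, 7.21 and 7.41 on the log2(FPKM + 1) scale. The thigh means were 7.56, 6.82 and 6.88, those of iWAT 7.07, 6.78 and 6.72, and those of BAT 9.08, 7.34 and 8.21.

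The peroxisomal genes split. Abcd2, which imports very long-chain acyl-CoA into peroxisomes, was lowest in BAT. It stood at 104, 103, 109 and 114 FPKM in tAT and 24.2, 25.1, 28.8 and 29.8 in BAT, against 98.1, 107, 132 and 122 in eWAT and 148, 129, 143 and 146 in iWAT. The BAT libraries lay below all others and the tAT libraries below those of iWAT. Abcd2 fell in BAT against iWAT (-2.35, SE 0.096, adjusted p = 8.01e-12), was higher in tAT than in BAT (1.96, SE 0.096, adjusted p = 1.58e-10) and was lower in tAT than in iWAT (-0.39, SE 0.096, adjusted p = 0.00482), the last at -0.37 (adjusted p = 0.124) without tAT 1, 2 and 4 and at -0.29 (adjusted p = 0.0547) after median-of-ratios scaling. The related transporter Abcd3 ran the other way, at 44.03 ± 6.12 FPKM in tAT and 129 ± 8.49 in BAT, against 34.4 ± 2.25 in eWAT and 37.5 ± 2.92 in iWAT, and was higher in BAT than in iWAT (1.76, SE 0.096, adjusted p = 2.12e-10).

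Hsd17b4, the multifunctional enzyme of peroxisomal oxidation, had the highest mean of the peroxisomal genes. Its values were 104, 115, 118 and 113 FPKM in tAT and 144, 140.0, 121 and 151 in BAT, against 152, 153, 160.3 and 181 in eWAT and 143, 176, 131 and 160.1 in iWAT. All tAT libraries lay below all libraries of the other depots, and the gene was lower in tAT than in iWAT (-0.42, SE 0.10, adjusted p = 0.00392), eWAT (-0.51, SE 0.10, adjusted p = 0.000479) and BAT (-0.30, SE 0.10, adjusted p = 0.0161) by limma. Without tAT 1, 2 and 4 none of these 3 differences passed, at -0.35 against iWAT (adjusted p = 0.156), -0.44 against eWAT (adjusted p = 0.0564) and -0.22 against BAT (adjusted p = 0.28), and under quantile normalization those against iWAT and eWAT did not pass, at -0.22 and -0.18 (adjusted p = 0.077 and 0.117). BAT minus iWAT was -0.13 (SE 0.10, adjusted p = 0.265), and turned to 0.52 and passed after median-of-ratios scaling.

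Acaa1b, a peroxisomal thiolase, was the one gene of the 36 higher in eWAT than in iWAT. It stood at 26.4, 25.4, 45.9 and 29.3 FPKM in tAT and 29.3, 26.9, 29.3 and 27.6 in BAT, against 114, 89.3, 82.98 and 113 in eWAT and 45.7, 60.6, 51.97 and 58.2 in iWAT. All eWAT libraries lay above all others. The difference was 0.87 (SE 0.16, adjusted p = 0.00258) in eWAT minus iWAT and -0.78 (SE 0.16, adjusted p = 0.00145) in tAT minus iWAT, the second falling to -0.22 (adjusted p = 0.421) without tAT 1, 2 and 4. Macrophage markers were also higher in eWAT than in iWAT for 8 of 9 genes, and their part was not tested. Acaa1a, the other thiolase, averaged 104 ± 19.4 FPKM in tAT and 74.6 ± 6.81 in BAT, against 131 ± 16.7 in eWAT and 124 ± 6.26 in iWAT, and it shares bases with Myd88 and Slc22a14 on the opposite strand.

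The 2 thiolases are 96.5% identical over 1272 coding bases, and 37.9% of the 50-base windows of either occur in the other, so reads could be split and their separate levels are uncertain. Coding bases 601 to 660 of each, from the GENCODE vM21 transcripts on mm10, show how close they are. Capitals mark the 2 bases at which they differ.
Acaa1a: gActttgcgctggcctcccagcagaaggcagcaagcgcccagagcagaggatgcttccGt
Acaa1b: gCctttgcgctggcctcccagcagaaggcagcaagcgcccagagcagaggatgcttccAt
Summed over both, the level was 136 ± 28.9 FPKM in tAT and 103 ± 6.65 in BAT, against 231 ± 29.8 in eWAT and 178 ± 12.2 in iWAT. The eWAT libraries of the sum all lay above those of the other depots.

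Of the other peroxisomal genes, Decr2, a dienoyl-CoA reductase, was higher in BAT than in iWAT (0.82, SE 0.19, adjusted p = 0.000868), and Acox2, an oxidase of branched chains, was at 1.02 to 2.44 FPKM in BAT and at most 0.33 elsewhere. Acox3, another oxidase of branched chains, and Ehhadh, the bifunctional enzyme, passed in none of the 6 contrasts. After median-of-ratios scaling Ehhadh was higher in BAT than in iWAT (0.75, adjusted p = 0.00563) and eWAT (0.82, adjusted p = 0.00279). Acox3 was then also higher in BAT than in iWAT (0.62, adjusted p = 0.00128) and eWAT (0.72, adjusted p = 0.000298), lower in tAT than in BAT (-0.38, adjusted p = 0.0341) and higher in tAT than in eWAT (0.34, adjusted p = 0.0496). Crot, carnitine octanoyltransferase, which prepares shortened chains for export to mitochondria, was lower in BAT than in iWAT (-0.37, SE 0.095, adjusted p = 0.00226) but turned to 0.25 after median-of-ratios scaling. In all, 3 of 10 peroxisomal genes were higher and 4 lower in BAT against iWAT, beside 12.7% and 61.5% of all genes. In tAT against iWAT 0 were higher and 3 lower by limma, beside 10.5% and 29.4% of all genes. Without adjustment for multiple testing, 1 more gene was higher (Abcd3) and 1 more lower (Acaa1a) in tAT against iWAT at the threshold of 0.05. The adjusted count in that contrast depended on the scaling. With median-of-ratios scaling 1 (Abcd3, at 0.32) was higher and 2 were lower, beside 15.4% and 21% of all genes. With quantile normalization 1 (Abcd3, at 0.39) was higher and 1 lower, beside 15.9% and 21.9%. With tAT 3 as the only thigh library the difference of Abcd3 from iWAT was 0.40. After median-of-ratios scaling, 7 were higher and 1 lower in BAT against iWAT, beside 31.2% and 32.9% of all genes.

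All 3 thioesterases, which release fatty acids from coenzyme A, rose in BAT and in tAT against iWAT. Acot11, known as a thioesterase of brown fat that cold induces, stood at 3.08, 3.45, 5.24 and 6.21 FPKM in tAT and 99.1, 98.1, 56.5 and 101 in BAT, against 0.930, 0.866, 0.846 and 0.749 in eWAT and 0.571, 0.889, 0.627 and 0.672 in iWAT. No tAT library overlapped another depot. Acot11 reached 1 FPKM in tAT and BAT libraries alone, so its entry into the test rested on the depots where it was high. Acot11 was 6.52-fold higher in tAT than in iWAT by mean FPKM (1.67, SE 0.19, adjusted p = 1.7e-05), 129-fold higher in BAT than in iWAT (5.70, SE 0.19, adjusted p = 7.34e-13) and lower in tAT than in BAT (-4.03, SE 0.19, adjusted p = 9.47e-11). Without tAT 1, 2 and 4 the difference of tAT from iWAT was 1.89 (adjusted p = 0.000444).

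Acot2, of the mitochondrial matrix, averaged 14.7 ± 2.37 FPKM in tAT and 30.4 ± 4.58 in BAT, against 5.17 ± 0.565 in eWAT and 8.94 ± 1.32 in iWAT, and Acot1, its cytosolic counterpart, 3.05 ± 0.556 in tAT and 8.78 ± 1.27 in BAT, against 1.79 ± 0.255 in eWAT and 1.98 ± 0.173 in iWAT (SD, n = 4 each). Both rose in tAT against iWAT (0.65, SE 0.13, adjusted p = 0.00123 and 0.43, SE 0.12, adjusted p = 0.00834). They lie on chromosome 12 (Acot1 at chr12:84009490-84018371, Acot2 at chr12:83987861-83993873, plus strand) and are 95.3% identical over 1236 aligned coding bases. Of the 50-base windows of Acot1 43.6% occur in Acot2, so their separate levels are uncertain, as in the following 60 bases, which do not differ (coding bases 601 to 660 of Acot1 and 724 to 783 of Acot2, GENCODE vM21 on mm10, plus strand).
Acot1: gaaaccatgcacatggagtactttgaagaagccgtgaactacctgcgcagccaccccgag
Acot2: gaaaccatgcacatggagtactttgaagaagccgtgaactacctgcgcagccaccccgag

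Of 64 further genes of the pathway, 63 were found and 58 tested. In tAT against iWAT 17 were higher and 8 lower, beside 10.5% and 29.4% of all genes. In BAT against iWAT 35 were higher and 10 lower, beside 12.7% and 61.5%, and in tAT against BAT 8 were higher and 36 lower, beside 58.6% and 11.2%. Of 12 tested regulators of fatty acid oxidation 9 were higher in tAT than in iWAT, beside 10.5% of all genes, with a median difference of 0.93, beside -0.11 for all genes. Of 16 citric acid cycle genes, which burn the acetyl-CoA the spiral releases, 14 were higher in tAT than in iWAT and 16 of 16 were higher in BAT against iWAT, beside 10.5% and 12.7% of all genes. The part of muscle transcripts in these counts was not tested. The 2 with the largest rise in tAT against iWAT were Slc27a2, a very long-chain acyl-CoA synthetase, at 5.28 ± 3.95 FPKM in tAT against 0.119 ± 0.14 in iWAT (2.26, adjusted p = 0.000196), and Pdk4, the kinase that holds back pyruvate oxidation, at 99.3 ± 24.1 FPKM in tAT against 24.1 ± 4.97 in iWAT (1.98, adjusted p = 1.14e-05). The same 2 genes had the largest rise in BAT against iWAT, by 6.39 and 3.97. Oxct1, which activates ketone bodies for use, was lower in tAT than in iWAT at 108 ± 17.4 FPKM in tAT against 165 ± 28.1 in iWAT (-0.61, adjusted p = 0.0102), and so was Pxmp4, a peroxisomal membrane protein, at 32.8 ± 4.04 FPKM in tAT against 48.3 ± 4.01 in iWAT (-0.55, adjusted p = 0.000299). Rxra, the partner of the PPAR receptors, fell in BAT against iWAT, at 13.1 ± 1.39 FPKM in BAT against 53.2 ± 3.94 in iWAT (-1.95, adjusted p = 1.24e-10).

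Lower in eWAT than in iWAT by limma were Acsl1, Cpt1b, Acadm, Abcd2 and Acot2, with differences from -0.71 (Acsl1) to -0.31 (Abcd2) on the log2(FPKM + 1) scale. The Cpt1b difference was -0.70 (SE 0.18, adjusted p = 0.0162) and that of Acadm -0.47 (SE 0.12, adjusted p = 0.0205). For 11 of the 36 genes all eWAT libraries lay below all iWAT libraries and for 1 above, beside 8.08% and 11% of all genes, and 9 of those 11 were among the 19 mitochondrial genes. The count of 5 lower moved to 3 without eWAT 1 or iWAT 4 and to 9 without tAT 3, which bears on this contrast only through the shared estimate of the spread.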

How the data were processed

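RNA of 16 adipose libraries (4 each of tAT, BAT, eWAT and iWAT) had been extracted with Trizol and made into TruSeq libraries, per the labels' protocols. The deposited table gives FPKM per gene, made by the authors with TopHat2 2.0.9 and Cufflinks 2.1.1 on mm10, per the submitters' processing notes. The labels and headers give no read counts, strand use or annotation version, so the depth behind each value is unknown and no counting interval was computed.

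The 37 genes and the other lists were chosen with earlier results of these data known. Genes at 1 FPKM or more in at least 4 libraries were kept. limma 3.58.1 in R 4.3.3 (trended, robust empirical Bayes) was fitted to log2(FPKM + 1) of all 16 libraries with a mean per depot, for 6 contrasts, with Benjamini-Hochberg adjustment over all 14991 genes and a threshold of 0.05. Differences on this scale understate the change of low genes.

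Values in every library are given, per step, for the gene with the highest mean and for those with the largest difference in tAT against iWAT, tAT against BAT and BAT against iWAT, plus Cpt1a, Cpt1b, Cpt2 and Acot11. Of the further pathway genes, the 2 largest differences in each direction were named, except 1 that is not reported here. Alternatives were another pseudocount, filter, scaling, fit or set of libraries. Positions, coding sequences and overlaps came from GENCODE vM21 (GRCm38.p6) and promoters from RefSeq (GRCm38.p6). Paralogs were compared by coding sequence in place of protein, since no protein table was used here.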

Additional observations from a re-analysis of the deposited data

Results flagged for a closer look

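Of 148 groups of 4 libraries (37 genes in 4 depots), 7 held a library far from the other 3. That is close to the share of about 1 in 20 that chance alone gives, so the 7 are listed as description only. Acsl1 stood at 642 FPKM in tAT 1, below the other thigh libraries at 745 to 757. Acsl3 stood at 9.10 FPKM in BAT 1, below the other brown libraries at 11.7 to 11.95. Acot11 stood at 56.5 FPKM in BAT 3, below 98.1 to 101 in the other brown libraries. Acaa1a stood at 133 FPKM in tAT 3, above 90.7 to 97.0 in the other thigh libraries. Decr2 stood at 28.5 FPKM in eWAT 4, above 19.9 to 21.3 in the other eWAT libraries. Ehhadh stood at 22.8 FPKM in iWAT 3, above 16.8 to 17.7, and Eci1 at 121 FPKM in iWAT 2, below 137 to 139 in the other iWAT libraries.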

How the results depend on the processing

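Over 36 genes and 6 contrasts, 216 differences were recomputed under each setting, and the scaling and the muscle-rich thigh libraries moved them most. A pseudocount of 0.1 left 215 of 216 with the same direction and side of the threshold, no filter 213, setting exact zeros to missing 216, fitting only the 2 depots compared 206, median-of-ratios scaling 182 and quantile normalization 170, and a filter of 5 FPKM kept 209 of 210. After median-of-ratios scaling the difference turned to -0.52 for Acsl1, -0.38 for Acox3, -0.081 for Acaa1a and -0.30 for Crot in tAT minus BAT, to 0.62 for Acox3, 0.52 for Hsd17b4 and 0.25 for Crot in BAT minus iWAT, and to 0.42 for Hsd17b4 and 0.52 for Crot in BAT minus eWAT. After quantile normalization it turned to 0.0045 for Acaa1a in tAT minus eWAT, to 0.058 for Acsl4, 0.52 for Acox3 and 0.19 for Crot in BAT minus iWAT, and to 0.025 for Acsl4, 0.25 for Hsd17b4 and 0.50 for Crot in BAT minus eWAT. Acaa1a in tAT minus eWAT turned to 0.029 without the muscle-rich libraries (tAT 1, 2 and 4 and BAT 3 and 4) and also without tAT 1, 2 and 4 alone. The cause was not tested. Differences that passed in neither setting turned their sign in 5 cases after median-of-ratios scaling and in 10 after quantile normalization.

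Genes higher in tAT than in iWAT numbered 14, against 24 after quantile normalization and 22 without the muscle-rich libraries or without tAT 1, 2 and 4, and genes lower 5, against 3, 1 and 1. Leaving out tAT 1, 2 and 4 was chosen after seeing the data, and assumes that tAT 3 varies like the other groups. Genes lower in tAT than in eWAT numbered 6, against 3 after quantile normalization, 3 without the muscle-rich libraries and 2 without tAT 1, 2 and 4. After median-of-ratios scaling, 2 genes were higher in tAT than in BAT (4 before), 2 were lower in BAT than in iWAT (6 before) and 3 were lower in BAT than in eWAT (5 before), while of all genes 27.3%, 32.9% and 34.9% were so called (58.6%, 61.5% and 59% before). Genes lower in eWAT than in iWAT numbered 5, against 10 after quantile normalization, 8 without the muscle-rich libraries and 10 without tAT 1, 2 and 4. Of all genes, 6.11% were called lower in eWAT than in iWAT after quantile normalization, beside 5.52% in the main fit. Leaving out each library in turn gave 14 to 17 genes higher and 5 to 6 lower in tAT against iWAT, 4 to 5 and 25 to 26 in tAT against BAT, 20 to 22 and 4 to 6 in tAT against eWAT, 26 to 27 and 6 in BAT against iWAT, 26 to 27 and 5 to 6 in BAT against eWAT, and 1 and 3 to 9 in eWAT against iWAT. The calls lost in this way included Acadm and Abcd2 in eWAT against iWAT (adjusted p up to 0.0805 and 0.161), Etfb, Acaa1a and Decr2 in tAT against eWAT (up to 0.104, 0.0849 and 0.122) and Hsd17b4 in tAT against BAT (up to 0.0507).

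No pairing by library number was seen: 4 of 24 same-numbered pairs correlated over 0.1 (-0.274 to 0.230), and 5 of 24 correlated best with their own number. Whether equal numbers mark the same animal is not stated in the labels. These correlations cannot settle it, since muscle transcripts also differed between libraries of a depot. With the number as a replicate block, 215 of 216 results kept their side of the threshold and Crot passed in tAT minus BAT, at 0.22 (adjusted p = 0.0479). Summing several entries of a symbol gave no other value, since each symbol had 1 entry.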
